A study of Mus musculus with 6 samples.

Results

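The cytosolic ribosomal protein genes were followed in mProx24, a mouse line derived from kidney proximal tubule cells. They were chosen by gene name on the array: Rpl or Rps with a number and, for some, a final a, x, l or l1, together with Rplp0, Rplp1, Rplp2 and Rpsa. This gave 83 of the 34574 gene names. Each gene was represented by its brightest probe without an outlier mark of the scanner software. Of the 83 genes, 77 encode canonical ribosomal proteins, 46 of the large subunit and 31 of the small subunit. The other 6 are like-genes, paralogs whose names end in l or l1: Rpl3l, Rpl7l1, Rpl10l, Rpl22l1, Rpl39l and Rps27l. In 59 of the 83 genes more than 1 probe was on the array, and the 83 genes had 188 probes in all, none of them marked.

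Ribosomal proteins form the cytosolic ribosome together with ribosomal RNA, and growing cells devote much of their mRNA to them. Their mRNAs typically begin with a 5′ terminal oligopyrimidine tract (TOP), a C followed by a run of C and T. The kinase complex mTORC1, which rapamycin inhibits, controls the translation of TOP mRNAs through this tract. That control acts on ribosome loading more than on the amount of mRNA, and an array measures the amount only.

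The series held 6 single-colour arrays of total RNA, 1 for each condition, and all cells were mProx24 of strain C57B6 grown with 10% fetal calf serum. One array each was made of control cells, of cells under high glucose, under high FFAs (palmitate, a free fatty acid) or under hypoxia, of cells under all of these (triple stimuli), and of the latter with rapamycin. Palmitate was given at 150 µM on 0.15% bovine serum albumin for 9 h. Hypoxia was 1% oxygen for 12 h before that, against 20% on the other 3 arrays. Rapamycin was given at 0.4 µg/ml for 12 h ahead of palmitate. Neither the glucose concentrations nor the vehicle of rapamycin are stated in those sources. The labels of 2 arrays conflict: the deposited scanner file under high glucose matches the value column under high FFAs, and the reverse. These arrays are therefore called array A (high glucose in the scanner file) and array B (high FFAs in the scanner file), and no statement is made on which stimulus each received.

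With 1 array per condition there is no replicate, and no difference below has a test. Levels are log2 signals minus the log2 75th percentile of the array, so a difference of 1 is a factor of 2. As a measure of technical error, 60 probes printed in 10 or more spots had a median SD of 0.054 between spots of an array, which gives an SD of 0.076 for a difference of 2 single spots. This covers neither culture nor labelling. All 6 arrays were on 1 slide, and the 3 arrays at 1% oxygen filled 1 of its rows, so oxygen and slide row cannot be told apart. Control and hypoxia were in slide column 1, array A and triple stimuli in column 2, and array B and the rapamycin array in column 3. Array A minus control and triple stimuli minus hypoxia are thus both column 2 minus column 1. Between 40.3% and 43.8% of spots were well above background, and no spot was saturated. Of 12 markers of the proximal tubule, 5 were well above background on all 6 arrays (Lrp2, Cubn, Aqp1, Ggt1 and Mme) and 7 on none, among them the transporters Slc34a1, Slc5a2 and Slc22a6. Of the other markers, Aqp2 of the collecting duct, Kdr of endothelium and Cd68 of macrophages were well above background on all 6 arrays. So were the keratins Krt8 and Krt18 of epithelium in general. Others of the same lists were not: Aqp3 was so on 1 array, and Scnn1g, Pecam1, Cdh5, Ptprc and Epcam on none. Pvalb of the distal tubule was so on 4 arrays and Slc12a3 on none. Col1a1 of fibroblasts was so on 1 array, and Col3a1 and Pdgfrb on none. None of the 3 podocyte markers and neither marker of the thick ascending limb was well above background on any array.

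The starts of several members are shown first, since the TOP tract is what links them to rapamycin. RefSeq's promoter table (GRCm38.p6) held 62 of the 83 genes, 56 canonical members and all 6 like-genes. Each window below has 30 bases before and 20 bases from the listed start. Capitals mark the run of C and T that begins at the start where it is a C with at least 4 more pyrimidines; elsewhere only the start base is in capitals. The first 4 members begin with such a run, Rpl10a, Rpl36a and Rpl37a are canonical members whose listed start does not, and the last 3 are like-genes.
Rps6, chr4:86857348-86857397, minus strand: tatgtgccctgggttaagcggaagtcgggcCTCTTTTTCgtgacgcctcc
Rpl35, chr2:39005112-39005161, minus strand: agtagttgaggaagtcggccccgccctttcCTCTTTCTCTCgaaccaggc
Rps18, chr17:33955646-33955695, minus strand: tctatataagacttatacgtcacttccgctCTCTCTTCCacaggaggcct
Rps21, chr2:180257349-180257398, plus strand: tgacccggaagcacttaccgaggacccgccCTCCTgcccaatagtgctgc
Rpl10a, chr17:28328441-28328490, plus strand: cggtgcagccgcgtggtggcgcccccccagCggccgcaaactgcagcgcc
Rpl36a, chrX:134585624-134585673, plus strand: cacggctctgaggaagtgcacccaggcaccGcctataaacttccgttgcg
Rpl37a, chr1:72711230-72711279, plus strand: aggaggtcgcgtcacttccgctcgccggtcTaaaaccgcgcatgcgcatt
Rpl22l1, chr3:28805478-28805527, plus strand: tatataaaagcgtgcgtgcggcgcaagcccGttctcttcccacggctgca
Rps27l, chr9:66946056-66946105, plus strand: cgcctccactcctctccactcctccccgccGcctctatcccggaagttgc
Rpl7l1, chr17:46782637-46782686, minus strand: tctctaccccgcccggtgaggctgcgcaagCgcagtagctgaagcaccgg

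A TOP start at the listed base was present in 13 of the 56 canonical members, or 23.2%, against 3.01% of the 27025 genes of the table. None of the 6 like-genes, none of 20 ribosome biogenesis genes and none of 66 mitochondrial ribosomal protein genes had one. Of other TOP genes of translation 6 of 15 (40%) had one, and of snoRNA host genes 2 of 6 (33.3%), larger shares than that of the members. When the tract (a C with at least 5 more pyrimidines) was allowed to begin up to 10 bases from the listed start, 31 of 56 members (55.4%) and 21.9% of all genes held it. Over the 300 bases of each window, read on both strands, the ETS core CCGGAA was present in 31 of 56 members (55.4%, all genes 16.7%). The YY1 core AAGATGG was present in 9 (16.1%, all genes 7.28%), the GC box GGGCGG in 34 (60.7%, all genes 38.2%) and the E-box CACGTG in 6 (all genes 8.09%). These shares were not particular to the members. Mitochondrial ribosomal protein genes had CCGGAA in 56.1% and AAGATGG in 19.7%, and ribosome biogenesis genes had GGGCGG in 70% and CACGTG in 20%. A match describes letters only and shows no binding. Rpl10a, Rps21 and Rps27l have more than 1 listed start, and the first is shown.

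All 77 canonical members were well above background on all 6 arrays and were among the brightest genes measured. Their median level lay between 8.30 on control and 8.48 on the triple stimuli array, and their levels between 5.73 and 9.62 over all arrays. Probes differ in how strongly they bind, so no gene is ranked against another by level. Because the members are so bright, 2 backgrounds are given throughout: all genes measured, and the 467 genes at least as bright as the lower quartile of the canonical members (409 of them not members).

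The set as a whole moved little in any comparison. The median difference of the canonical members was 0.018 for array A minus control, 0.037 for array B minus control, 0.086 for hypoxia minus control and 0.036 for triple stimuli minus control. Triple stimuli minus hypoxia gave -0.024, and triple stimuli with rapamycin minus triple stimuli gave -0.087. The same medians over genes as bright were 0.029, 0.042, 0.107, 0.099, -0.030 and -0.134. Over all genes measured they were -0.009, 0.021, -0.011, -0.006, -0.027 and -0.032. The hypoxia and rapamycin medians of the members were the farthest from 0, and in both the genes as bright lay farther from 0 in the same direction. In no comparison was a canonical member 1 or more away from 0, whereas 2.47% (array A), 0.592% (array B), 4.89% (hypoxia), 6.8% (triple stimuli), 6.54% (triple stimuli minus hypoxia) and 4.1% (rapamycin added) of all genes were. Of genes as bright, 8.78% were in hypoxia and 1.5% in triple stimuli. Only 0.214% were for array A and for array B each, and 0% for triple stimuli minus hypoxia and for rapamycin added. Outside hypoxia the members thus differed little from other bright genes in this count.

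**Figure D1:**
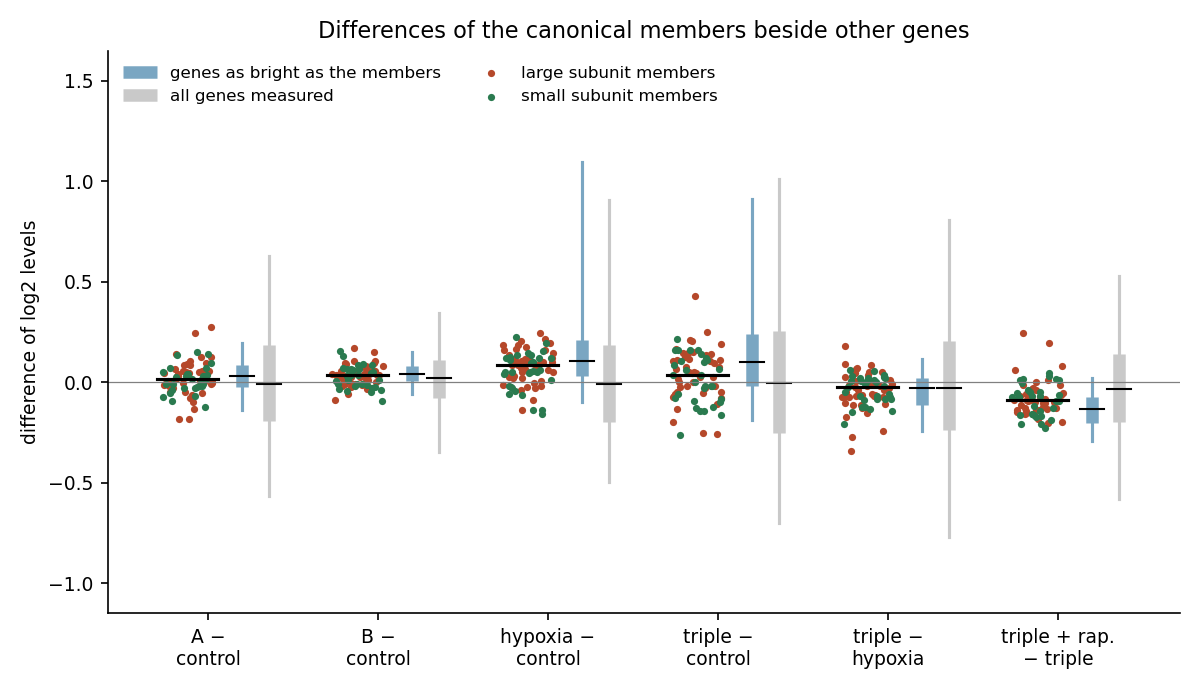
Differences of log2 levels (vertical axis) for the 77 canonical members in each of 6 comparisons, 1 point a gene, with the member median as a black line; blue and grey boxes give the quartiles, and thin lines the 5th to 95th percentile, of the genes as bright and of all genes measured. The members form a narrow band between -0.34 and 0.43, and Rpl10a is the highest point for triple stimuli minus control; under no scaling the median of hypoxia minus control turns from 0.086 to -0.188.

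The direction of these small shifts depended on how the arrays were scaled. For hypoxia minus control, 60 of 77 canonical members were above 0, a share that was 48.4% over all genes and 82.9% over genes as bright. With no scaling 0 of 77 were above 0 (median -0.188), with each array centred on its median 13 of 77 (median -0.067), and with quantile normalization 7 of 77 (median -0.131). The 75th percentile of signal was 363 on control and 300.2 on hypoxia, so that 75th percentile scaling alone added the difference between those medians. With no scaling the median was -0.285 over all genes and -0.167 over genes as bright, and that of the members lay between them. After quantile normalization these medians were -0.034 and -0.118, and that of the members lay below both.

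In triple stimuli minus control, 46 of 77 canonical members were above 0 (49.3% of all genes, 72.4% of genes as bright) and 31 below (50.7% of all genes). No scaling left 2 of 77 above 0, array medians 21 and quantile normalization 10, with medians of -0.202, -0.076 and -0.111, and normexp background correction left 31 (median -0.015). For array A minus control, 46 of 77 were above 0 (48.6% of all genes, 63.4% of genes as bright) and 31 below (51.4% and 36.6%), against 17 with no scaling, 16 with array medians and 35 after quantile normalization. For array B minus control, 55 of 77 were above 0 (56.7% of all genes, 78.2% of genes as bright), against 15 with no scaling and 34 after quantile normalization. Triple stimuli minus hypoxia had 28 of 77 above 0 (46.5% of all genes, 35.1% of genes as bright) and 49 below (53.5% of all genes), and 40 above with no scaling.

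With rapamycin added to the triple stimuli, 65 of 77 canonical members were below 0 and 12 above (44.7% of all genes). The share below was 55.3% over all genes and 91.9% over genes as bright, so the count of members was no higher than that of other bright genes. This direction also turned with the scaling: 58 of 77 were above 0 with no scaling (median 0.052) and 57 after quantile normalization (median 0.043), whereas array medians left 4 above 0 (median -0.140).

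**Figure D2:**
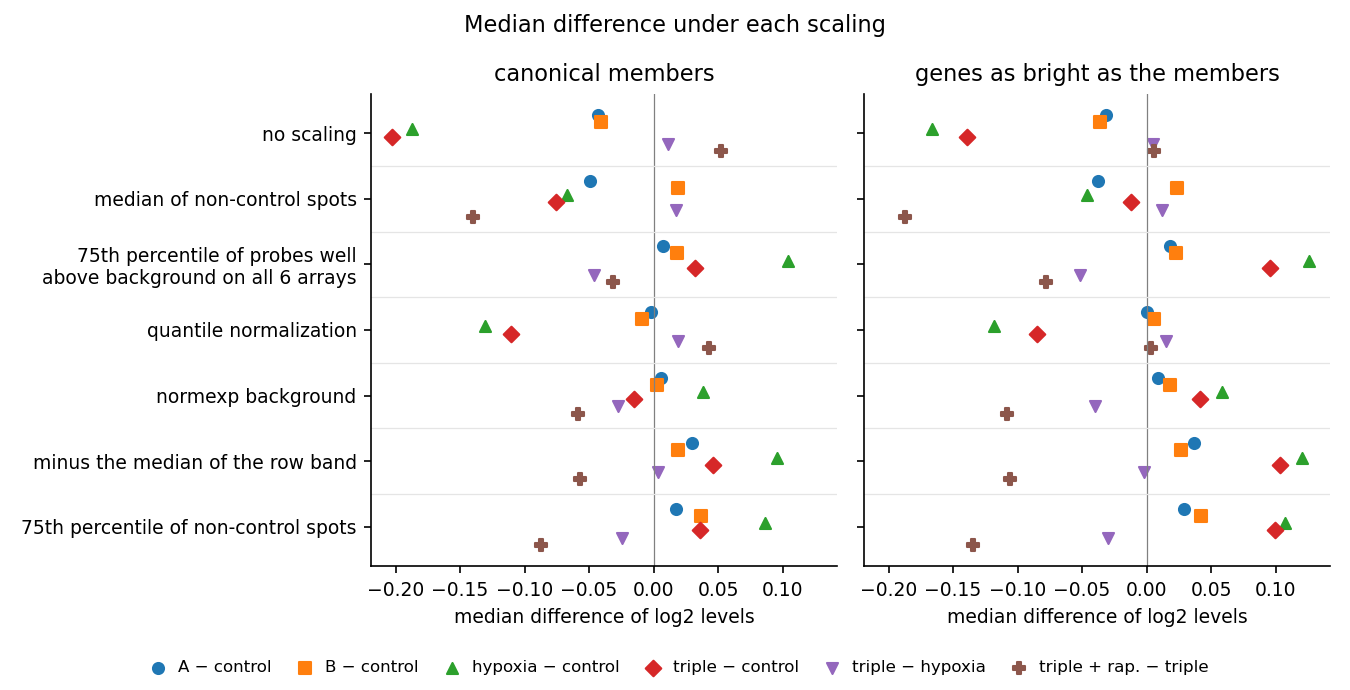
Median difference of log2 levels (horizontal axis) under 7 scalings (vertical axis) for the 77 canonical members (left) and the 467 genes as bright (right), 1 marker for each of 6 comparisons. Hypoxia minus control lies at 0.086 under 75th percentile scaling and at -0.188 under no scaling in the members, and the markers of the genes as bright move the same way.

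What did not depend on a common shift was how alike the members were. The SD of the difference over the 77 canonical members was 0.080 for array A, 0.053 for array B, 0.089 for hypoxia and 0.126 for triple stimuli, each minus control. It was 0.086 for triple stimuli minus hypoxia and 0.084 for rapamycin added. Over genes as bright, the SD was 0.128, 0.137, 0.356, 0.328, 0.128 and 0.103 in the same order. The SD over members in array B minus control was below the 0.076 of repeated spots, and the contrast of SDs was widest in hypoxia minus control. Outliers weigh on the SD of genes as bright, whose lowest value for array B was -2.54. The quartiles for array B were -0.009 and 0.066 over members and 0.008 and 0.081 over genes as bright, a like middle spread. In hypoxia minus control they were 0.020 and 0.122 over members and 0.033 and 0.211 over genes as bright. Among those genes, 98 of 467 were at least 0.25 higher in hypoxia (21%), and 0 of 77 canonical members were.

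Large subunit members had medians of 0.031 for array A, 0.038 for array B, 0.093 for hypoxia and 0.048 for triple stimuli, each minus control, and -0.089 for rapamycin added. The small subunit gave 0.016, 0.028, 0.052, 0.00056 and -0.074. Under no scaling the medians of all canonical members for hypoxia and triple stimuli turn below 0.

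Few canonical members stood 0.25 or more from 0: 1 of 77 higher for array A (19.8% of all genes, 2.57% of genes as bright) and none lower (19.9% and 1.93%). None was so far either way for array B (8.47% of all genes each way, 0% of genes as bright higher and 0.642% lower). The same held for hypoxia (20% of all genes higher and 19.7% lower, 21% of genes as bright higher and 0.857% lower). Triple stimuli minus control had 2 of 77 higher (25.2% of all genes, 23.3% of genes as bright) and 3 lower (25.3% and 2.57%). Triple stimuli minus hypoxia had 2 of 77 lower (24.1% of all genes, 4.07% of genes as bright) and none higher (22.1% and 2.36%). For rapamycin added there was none in either direction, where 14.9% of all genes were at least 0.25 higher and 19.1% lower. Of genes as bright, 0.642% were higher and 13.9% lower there.

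Rpl10a, a large subunit protein of the L1 stalk, was the highest canonical member in 4 comparisons and had the widest range of the 77. Its probe lies at chr17:28467917-28467976 on mm9. The levels were 8.64 on control, 8.91 on array A, 8.73 on array B, 8.88 on hypoxia, 9.06 on triple stimuli and 9.03 with rapamycin added. The triple stimuli arrays were the highest, with and without rapamycin, and control the lowest; with no scaling array A lay above triple stimuli and hypoxia below control. The difference was 0.43 for triple stimuli minus control (1.34-fold), 0.27 for array A minus control and -0.03 for rapamycin added. A second probe gave 0.35, 0.21 and -0.03. With no scaling triple stimuli minus control was 0.19, array A minus control 0.21 and hypoxia minus control -0.028, and rapamycin added turned to 0.11.

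Rpl36a and Rpl37a, both of the large subunit, were low on array A and on triple stimuli and not with rapamycin. Rpl36a (probe at chrX:131122540-131122599, mm9) was at 7.59 on control, 7.41 on array A, 7.58 on array B, 7.58 on hypoxia, 7.34 on triple stimuli and 7.58 with rapamycin added. The 2 low arrays stand apart from the other 4, which lie close together. Rpl37a (probe at chr1:72760138-72760197, mm9) was at 8.87 on control, 8.74 on array A, 8.97 on array B, 9.02 on hypoxia, 8.68 on triple stimuli and 8.87 with rapamycin added. Again array A and triple stimuli were the lowest. These 2 arrays are the ones in slide column 2, so stimulus and slide column cannot be told apart in this pattern.

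Triple stimuli minus hypoxia was -0.24 for Rpl36a and -0.34 for Rpl37a, and rapamycin added gave 0.24 and 0.20, the highest of all canonical members. The other 2 probes of Rpl36a gave -0.32 and -0.11 for triple stimuli minus hypoxia and 0.15 and 0.14 for rapamycin added. The other probe of Rpl37a gave -0.29 and 0.26. These signs held under every scaling tried: for rapamycin added, Rpl36a ranged from 0.19 (array medians) to 0.38 (no scaling) and Rpl37a from 0.14 to 0.36. Rpl36al, a copy of Rpl36a outside the name rule and picked after its values were seen, had -0.31 for rapamycin added.

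Rpl39, which like Rpl36a is encoded on the X chromosome, was at 7.80 on control, 7.70 on array A, 7.84 on array B, 8.02 on hypoxia, 7.75 on triple stimuli and 7.81 with rapamycin added. Hypoxia was its highest array. Its difference for triple stimuli minus hypoxia was -0.27, and its other 2 probes gave -0.20 and -0.21. For hypoxia minus control it had 0.21, and those probes 0.17 and -0.15, so the probes differ in sign there. For triple stimuli minus hypoxia, all 4 X-linked members (Rps4x, Rpl10, Rpl36a and Rpl39) were below 0, between -0.27 and -0.08, as were 49 of the 77 canonical members, 53.5% of all genes and 64.9% of genes as bright.

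Other large subunit members were also named by rank, and their probes did not always match. Rpl7a was at 7.50 on control, 7.75 on array A, 7.67 on array B, 7.66 on hypoxia, 7.71 on triple stimuli and 7.52 with rapamycin added. Its difference of 0.25 for array A was not shared by its other 3 probes, which lay between -0.05 and 0.04. Rpl3, at the peptidyl transferase centre, was at 8.29, 8.38 and 8.35 on the 3 arrays at 20% oxygen (control, A and B). It was at 8.48, 8.54 and 8.47 on the 3 at 1% (hypoxia, triple stimuli, rapamycin added). Rpl21 was lower for triple stimuli minus control (-0.25) and array A minus control (-0.18). Its other probes, both dimmer, gave -0.20 and -0.30 for the former and -0.10 and -0.13 for the latter. Rpl12 was 0.19 higher for triple stimuli minus control, and Rpl35 was 0.15 higher for array B.

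**Figure D3:**
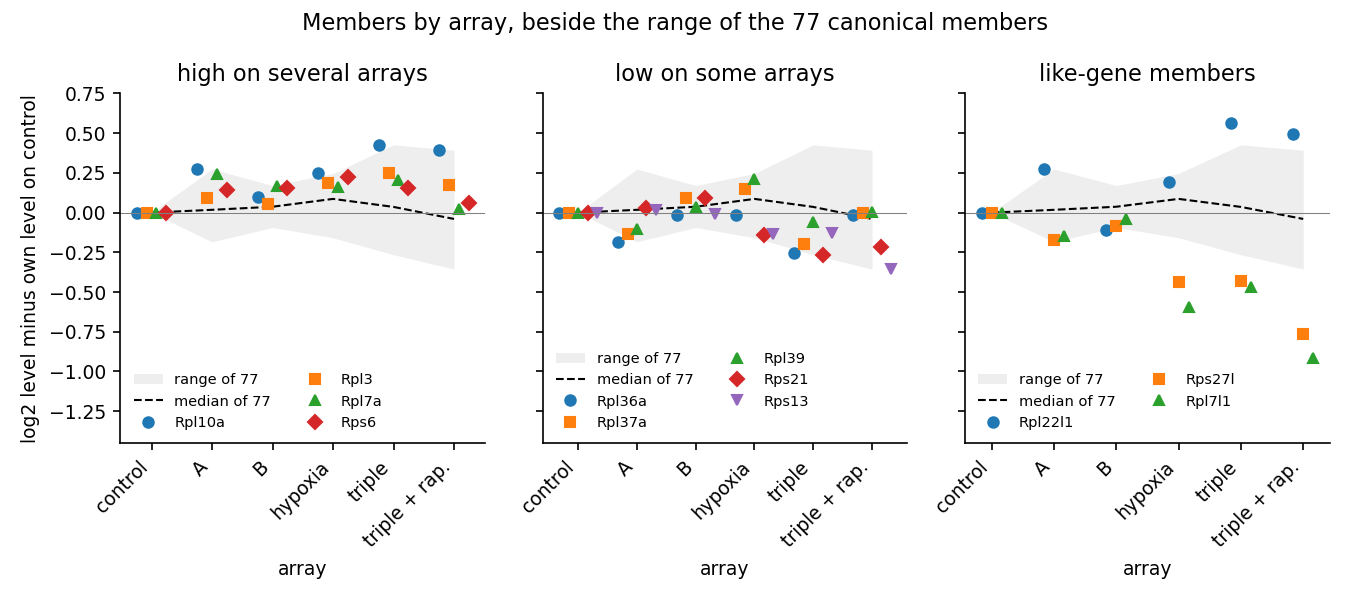
Log2 level minus the gene's own level on control (vertical axis) on each of 6 arrays (horizontal axis) for 12 members, beside the range (grey) and median (dashed) of the 77 canonical members. Rpl36a and Rpl37a lie low on array A and triple stimuli and return to about the level of control with rapamycin, and Rps27l and Rpl7l1 leave the range of the 77 on the 3 arrays at 1% oxygen. Array A and triple stimuli share slide column 2.

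The P stalk, which recruits elongation factors to the ribosome, is made of Rplp0, Rplp1 and Rplp2. Rplp0, also a common PCR reference, was at 9.32 on control, 9.39 on array A, 9.31 on array B, 9.50 on hypoxia, 9.47 on triple stimuli and 9.34 with rapamycin added. It was highest on the 2 arrays at 1% oxygen without rapamycin. Rplp1 had one of the 3 narrowest ranges of all canonical members, 0.069 from lowest to highest array, after Rpl30 (0.068) and before Rpl27a (0.092). The narrow ranges hold for this scaling: with no scaling hypoxia minus control was -0.25 for Rplp1 and -0.30 for Rpl30, and triple stimuli minus control -0.29 for Rpl27a.

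Rpl5 and Rpl11, which bind 5S ribosomal RNA and, when free, the p53 ligase Mdm2, did not move alike. Rpl5 was at 6.93, 6.98 and 6.94 at 20% oxygen (control, A and B) and at 7.02, 7.07 and 7.03 at 1% (hypoxia, triple stimuli, rapamycin added), so the oxygen groups did not overlap, though with no scaling they did. Rpl11 was at 9.23 on control, 9.18 on array A, 9.27 on array B, 9.28 on hypoxia, 9.15 on triple stimuli and 9.03 with rapamycin added. Its lowest array was that with rapamycin.

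In the small subunit, Rps6, the protein phosphorylated by S6 kinase downstream of mTORC1, was at 7.90 on control and higher on every other array. It was at 8.04 on array A, 8.05 on array B, 8.12 on hypoxia, 8.06 on triple stimuli and 7.96 with rapamycin added. The differences were 0.22 for hypoxia minus control and -0.10 for rapamycin added. Its other 2 probes gave 0.027 and -0.051 for hypoxia, and -0.10 and 0.12 for rapamycin added, so the probes of Rps6 differ in sign in both. With no scaling, the chosen Rps6 probe lay below control on hypoxia, on triple stimuli and with rapamycin added. Rps14 was 0.15 higher on array A and 0.22 higher for triple stimuli, each minus control.

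Rps13 and Rps21, with Rpl10a, had the widest ranges of all canonical members. Rps13 was at 7.71 on control, 7.73 on array A, 7.70 on array B, 7.57 on hypoxia, 7.58 on triple stimuli and 7.35 with rapamycin added. The 3 arrays at 20% oxygen were the highest and the rapamycin array the lowest, and rapamycin added gave -0.23, the lowest canonical member. Rps21 was at 5.999, 6.03 and 6.09 at 20% oxygen (control, A and B) and at 5.86, 5.73 and 5.78 at 1% (hypoxia, triple stimuli, rapamycin added). Its difference for triple stimuli minus control was -0.27, and -0.50 with no scaling.

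Rps2 and Rps27a, the latter made as a fusion with ubiquitin, followed Rps13 at -0.21 each for rapamycin added. The chosen Rps2 probe lies far from the other Rps2 probe on chr17, and the latter gave -0.16. Rps27a was at 9.18 on control, 9.32 on array A, 9.31 on array B, 9.32 on hypoxia, 9.34 on triple stimuli and 9.13 with rapamycin added. The arrays with rapamycin and control were its lowest. Rps18 was 0.04 lower in hypoxia minus control.

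Some members serve as PCR reference genes, and others are mutated in Diamond-Blackfan anaemia. The 8 reference genes (such as Rplp0, Rpl13a and Rps18) had a median of 0.055 for array A, 0.048 for hypoxia and -0.135 for rapamycin added. Of these, Rpl13a was at 6.97 on control, 7.13 on hypoxia, 7.11 on triple stimuli and 6.97 with rapamycin added. The 16 anaemia genes had medians of -0.008, 0.082 and -0.086 for the same comparisons.

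The arrays at 1% and at 20% oxygen did not overlap in 12 of 77 canonical members. In 5 the 3 arrays at 1% were all higher (among them Rpl3, Rpl5, Rpl37 and Rps16), where 9.93% of all genes and 24.8% of genes as bright were. In 7 they were all lower (among them Rpl4, Rpl30, Rps4x, Rps13 and Rps21), where 16% of all genes and 6% of genes as bright were. In 9 of the 12 the groups were apart by less than the 0.076 of repeated spots, and in 3 (Rpl3, Rps13 and Rps21) by more. These counts followed the scaling: 0 were all higher and 61 all lower with no scaling, 0 and 33 with array medians, 0 and 47 after quantile normalization, and 19 and 5 with scaling on the probes detected on all arrays. Rps13 and Rps21 were among the lower ones in each of these, whereas Rpl3 and Rpl5 overlapped in the first 3. Oxygen and slide row cannot be told apart here.

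The order of the members was alike in 2 comparisons that share no array. Over the 77 canonical members, array A minus control and triple stimuli minus hypoxia had Pearson's r = 0.69 and Spearman's rho = 0.66. Over the 409 other genes as bright the values were 0.54 and 0.55. Array B minus control against triple stimuli minus hypoxia gave r = 0.11 and rho = 0.15 over members. Array A minus control against rapamycin added minus triple stimuli gave r = -0.54 and rho = -0.50 over members, and -0.09 and -0.21 over the other bright genes. These 3 pairs were all that were computed. The points share a slide, the labelling and the probes, and genes are not replicates. Array A minus control and triple stimuli minus hypoxia are both slide column 2 minus column 1. Rapamycin added minus triple stimuli is column 3 minus column 2. Stimulus and slide column therefore cannot be told apart in these correlations.

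**Figure D4:**
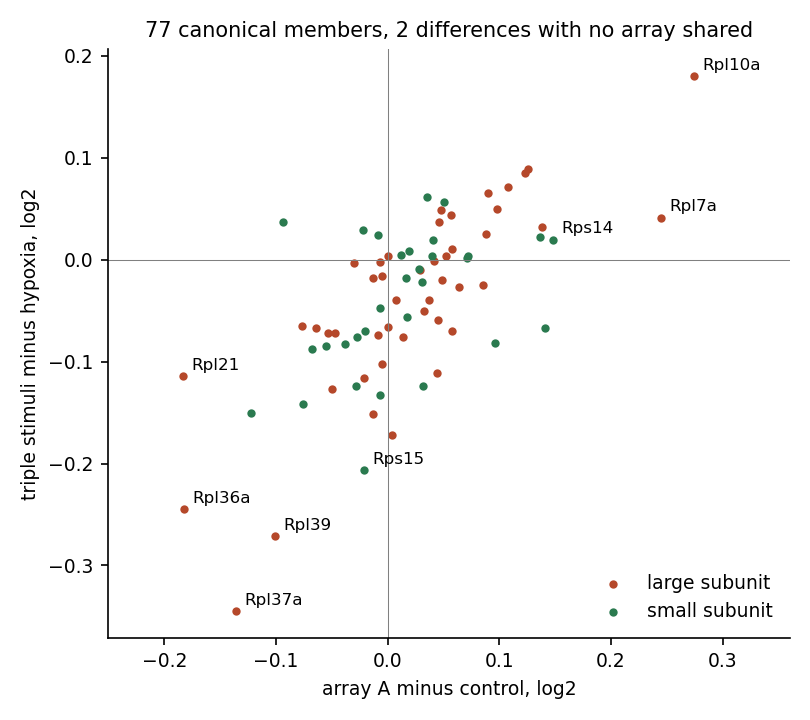
Array A minus control (horizontal axis, log2) against triple stimuli minus hypoxia (vertical axis, log2), 1 point for each of the 77 canonical members, coloured by subunit. Rpl10a lies at the upper right (0.27 and 0.18) and Rpl36a and Rpl37a at the lower left, and r over the points is 0.69. Both axes are slide column 2 minus column 1.

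Of the 6 like-genes, Rpl7l1, Rpl22l1 and Rps27l were well above background on all 6 arrays, Rpl3l and Rpl39l on none, and Rpl10l on hypoxia only. Rpl3l is known from muscle, and Rpl10l and Rpl39l from testis. Rpl10l on hypoxia, at a level of -1.06, was at least 6.02-fold higher than control, counting the control at its detection limit. A second Rpl10l probe was well above background on no array, and averaging the 2 probes turned triple stimuli minus hypoxia from -2.02 to 0.04.

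Rps27l, a p53-inducible paralog of Rps27 (probe at chr9:66795486-66797176, mm9), was at 6.27 on control, 6.10 on array A, 6.19 on array B, 5.84 on hypoxia, 5.84 on triple stimuli and 5.51 with rapamycin added. The 3 arrays at 1% oxygen were all below the 3 at 20%, and rapamycin was the lowest. The differences were -0.44 for hypoxia minus control, -0.43 for triple stimuli minus control and -0.33 for rapamycin added. They were -0.71, -0.67 and -0.19 with no scaling.

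Rpl7l1, which acts in the assembly of the large subunit (probe at chr17:46912582-46912641, mm9), was at 1.33 on control, 1.18 on array A, 1.30 on array B, 0.74 on hypoxia, 0.87 on triple stimuli and 0.42 with rapamycin added. It had the same order of arrays as Rps27l in its extremes: control highest, rapamycin lowest, and no overlap between oxygen groups. Its differences were -0.59 for hypoxia minus control (1.51-fold lower) and -0.45 for rapamycin added, and -0.87 and -0.31 with no scaling. Each of these like-genes had 1 probe.

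Rpl22l1, the paralog of Rpl22, went the other way (probe at chr3:28706237-28706296, mm9). It was at 5.50 on control, 5.77 on array A, 5.39 on array B, 5.69 on hypoxia, 6.06 on triple stimuli and 5.99 with rapamycin added. The triple stimuli arrays were the highest. Triple stimuli minus control was 0.56 (1.48-fold), or 0.33 with no scaling, and array A minus control 0.28. Rpl22 itself was at 8.08 on control, 8.03 on array A, 8.27 on hypoxia and 8.20 on triple stimuli, and its 2 differences were 0.12 and -0.05.

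Other genes of translation and ribosome assembly give the members their context. The 22 other TOP genes of translation had medians near those of the members for array A (0.032), hypoxia (0.088) and triple stimuli minus hypoxia (-0.021). For rapamycin added their median was -0.019, with 10 of 22 above 0. The members had -0.087 there with 12 of 77 above 0, and all genes -0.032 with 44.7% above 0. At least 0.25 from 0 for rapamycin added was 1 of 22, Vim, an intermediate filament gene (0.25), where 14.9% of all genes were as far above 0 and 19.1% as far below. Gnb2l1, now Rack1, a scaffold protein on the small subunit, was the farthest below 0 among them at -0.23.

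Ribosome biogenesis genes, which make and process ribosomal RNA, moved far more than the members. Of 25, 19 were at least 0.25 higher on array A than on control (median 0.52) and 19 at least 0.25 lower in hypoxia (median -0.36). In triple stimuli minus hypoxia 22 of 25 were at least 0.25 higher (median 0.84), and with rapamycin added 19 of 25 were at least 0.25 lower (median -0.37). The background shares for these 4 counts are 19.8%, 19.7%, 22.1% and 19.1% of all genes. Rrp9, of the U3 snoRNP, was at 1.88 on control, 2.35 on array A, 1.84 on array B, 1.19 on hypoxia, 2.11 on triple stimuli and 1.44 with rapamycin added. Nhp2, of the H/ACA snoRNPs, was at 6.67, 7.08, 6.71, 6.17, 6.78 and 6.25 in the same order. Both were low on hypoxia and with rapamycin and high on array A. Myc, an activator of ribosome genes singled out after its values were seen, was 1.45 higher on array A and 1.99 higher for triple stimuli minus hypoxia, and 0.025 away from 0 with rapamycin added.

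Hosts of snoRNAs, whose spliced RNAs are TOP transcripts although they encode no protein, lay far from the members on array A and in triple stimuli. Of 7 listed, 6 were measured, and 4 of these were at least 1 higher on array A and in triple stimuli minus hypoxia (medians 1.42 and 1.60). At that distance in either direction lay 2.47% and 6.54% of all genes. Gas5 was at 3.77 on control, 4.92 on array A, 3.89 on array B, 3.87 on hypoxia, 5.28 on triple stimuli and 4.81 with rapamycin added. Snhg1 was at 1.78, 3.46, 1.88, 2.21, 4.13 and 3.98 in the same order. Both were high on array A and on both triple stimuli arrays. Markers moved between the same arrays: the macrophage marker Cd68 was at -0.87 on control, 1.05 on array A and 0.52 on triple stimuli. The tubule markers detected did not all move alike. On the same arrays Lrp2 was at 3.53, 2.85 and 2.43, and Aqp1 and Mme were also lower than on control. Ggt1 was higher (-2.19, -1.51 and -1.43), and Cubn was at -0.15, -0.37 and -0.12. The other leukocyte marker, Ptprc, was well above background on no array, and the part of these markers in the host and biogenesis values was not tested. Averaging all Gas5 probes lowered array A minus control from 1.16 to 0.55 and turned hypoxia minus control from 0.11 to -0.36, so its probes differ. Rapamycin added gave -0.47 for Gas5 and -0.14 for Snhg1.

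The 75 mitochondrial ribosomal protein genes, whose products form the separate ribosome of mitochondria, had a median of -0.20 for hypoxia, with 65 of 75 below 0 (51.6% of all genes). Rapamycin added gave -0.17, with 68 of 75 below 0 (55.3% of all genes), and -0.029 with no scaling. With rapamycin added, Mrpl50 was at -0.52 and Mrps28 at -0.47.

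**Figure D5:**
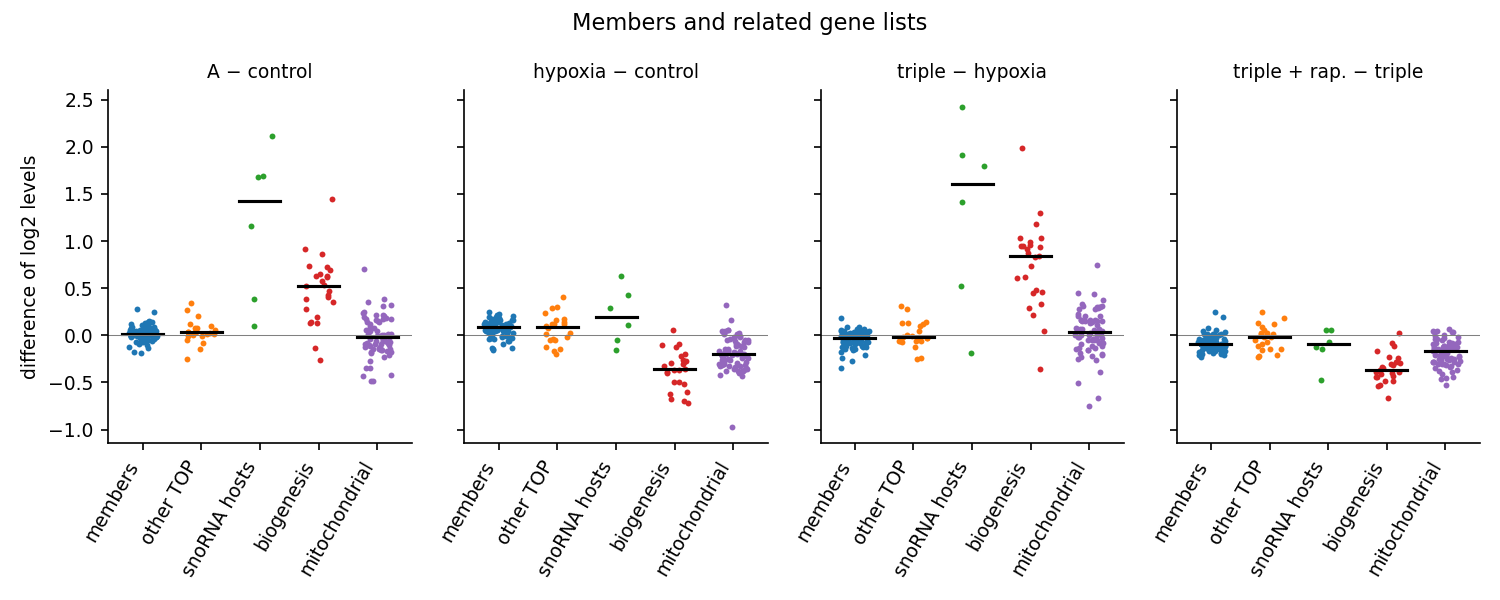
Differences of log2 levels (vertical axis) in 4 comparisons (panels) for the canonical members, other TOP translation genes, snoRNA host genes, ribosome biogenesis genes and mitochondrial ribosomal protein genes, 1 point a gene with the list median as a black line. The members cluster near 0 where the biogenesis median is 0.84 (triple stimuli minus hypoxia) or -0.37 (rapamycin added).

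Members were also split by a TOP start at the listed base. For rapamycin added, the 13 with it had a median of -0.089 and the 43 without it -0.093. For hypoxia minus control the medians were 0.095 and 0.092, and for array A minus control 0.032 and 0.013. With the tract allowed within 10 bases of the start, the 31 with it had a median of 0.065 and the 25 without it -0.030 for triple stimuli minus control. The same split gave 0.039 and -0.013 for array A minus control, and -0.096 and -0.076 for rapamycin added. Of the members shown above with such a run, Rps6 had -0.10 and Rpl35 -0.10 for rapamycin added, Rps18 -0.07 and Rps21 0.05. Rpl36a and Rpl37a, the highest members in that comparison, have no such run at their listed start.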

How the data were processed

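The authors hybridised 1 Cy3 array per condition and read the scans with Agilent Feature Extraction 10.7.3.1, per the file headers. The deposited scanner files hold linear signal intensity per spot, background-subtracted and detrended, not scaled between arrays. The deposited value table holds a ratio to the array's 75th percentile, as read from its values. Whether separate cultures were used is not stated in these sources.

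Control spots and 323 of 55681 probes with an outlier mark were left out. The log2 processed signal minus the array's log2 75th percentile was averaged over a probe's spots, and the brightest probe stood for a gene. A difference was taken where at least 1 array was well above background, the dim side raised to the lowest signal well above background. Probe positions are on mm9; no exon was annotated, since no mm9 annotation was used here. Ribosomal protein genes have near-identical copies that probes may also bind, and 2 chosen probes (Rps27, Rps29) lie on another chromosome than the gene in RefSeq. Only chromosomes were compared: the chosen Rps2 probe (chr17:42864841-42864900) lies far from the other Rps2 probe (chr17:24857583-24857642). Named were, by rule, the 3 highest and lowest members of each comparison, the 3 widest and narrowest ranges, all like-genes, members of known role, and 2 genes of each other list; some of these are not reported here.

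Members, lists and thresholds (0.25 and 1) were chosen with earlier results of these data known. The calculation was tested on simulated data. Alternatives (12 planned, 4 added after seeing the data) used Python 3.11.15, pandas 2.3.3 and limma 3.58.1 in R 4.3.3.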

Additional observations from a re-analysis of the deposited data

How the results depend on the processing

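No paired analysis was possible because each condition had 1 array; for the same reason no replicate could be left out. Counts of canonical members at least 0.25 from 0 in either direction were 1 (array A), 0 (array B), 0 (hypoxia), 5 (triple stimuli, each minus control), 2 (triple stimuli minus hypoxia) and 0 (rapamycin added) under 75th percentile scaling. With no scaling they were 0, 0, 21, 31, 1 and 2, with array medians hypoxia 4, triple stimuli 8, triple stimuli minus hypoxia 1 and rapamycin 4, and with quantile normalization 2 (array A), 6, 11, 1 and 2. Scaling on the probes detected on all arrays gave hypoxia 1 and rapamycin 2, with 18 (triple stimuli minus hypoxia) and 26 (rapamycin) of 77 above 0. Row bands of the slide gave 2 (array A), 1 (hypoxia), 1 (triple stimuli minus hypoxia) and 1 (rapamycin), normexp 1 (rapamycin), the mean over probes 1 (array B), 1 (hypoxia) and 2 (rapamycin), and centring on the members 1 (triple stimuli minus hypoxia) and 2 (rapamycin). The value table with its columns as labelled exchanges arrays A and B: 0 and 1 members were 0.25 from 0, and array A minus control turned to -0.12 for Rpl22l1, -0.053 for Rrp9 and 0.031 for Vim; Rpl10l turned to 0.041 for triple stimuli minus hypoxia with the mean over probes.

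Medians of all members that moved by more than 0.076 were, with no scaling, -0.041 (array B), -0.188 (hypoxia), -0.202 (triple stimuli) and 0.052 (rapamycin); with array medians, -0.067 (hypoxia) and -0.076 (triple stimuli); and with quantile normalization, -0.131, -0.111 and 0.043 (hypoxia, triple stimuli, rapamycin). Members above 0 were, for arrays A and B, hypoxia, triple stimuli and rapamycin, 17, 15, 0, 2 and 58 with no scaling; 16 (A), 13 (hypoxia), 21 and 4 with array medians; and 34 (B), 7, 10 and 57 with quantile normalization. Members with the 1% oxygen arrays all above or all below the others were 5 and 7, against 0 and 61 (no scaling), 0 and 33 (array medians), 0 and 47 (quantile), 19 above (probes detected on all arrays) and 11 below (normexp). The value table matched to the scanner files, and the limit to genes detected on all 6 arrays, moved no result. One array per condition limits every value. Dim signal does not limit the canonical members, since all 77 were well above background. Whether high signal or binding of near-identical copies narrowed their differences was not tested.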

Other observations

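Dimmer probes of some members did not follow their brightest probe. Of 100 other probes of 57 member genes, between 89 (triple stimuli minus control) and 99 (array A minus control) lay within 0.25 of the chosen probe. A probe of Rpl23 printed in 10 spots (chr11:97638917-97638976, mm9) was at 3.68 on control, 3.74 on array A, 3.75 on array B, 3.75 on hypoxia, 3.83 on triple stimuli and 4.27 with rapamycin added. The SD between its spots was 0.047 to 0.076, so the rapamycin array stood apart from the other 5 by more than spot error. The difference was 0.45 for rapamycin added, where the 2 brighter Rpl23 probes gave -0.087 and 0.00059. Dim probes of Rpl22 and Rpl27a were also higher with rapamycin, by 0.52 and 0.39. These probes were picked after their values were seen, and no annotation says which transcript they bind.

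Among names close to the rule, Rps6kb1, the S6 kinase, was at 4.39 on control, 4.34 on triple stimuli and 4.52 with rapamycin added. The pseudogene probes Rpl17-ps1, Rpl18-ps1 and Rps19-ps4 were well above background on all 6 arrays, at 6.41, 8.35 and 8.14 on control. Rps4y2 was well above background on none.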
